A study of Rattus norvegicus with 12 samples.

Results

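Haem and iron handling was followed through 10 genes in H9C2, an established cell line of myoblasts from rat heart. The genes were the rows whose gene name matched a fixed list of 10 names: Hmox1 and Blvrb of haem breakdown, the ferritin chains Ftl1 and Fth1 with the ferritin turnover receptor Ncoa4, the importers Tfrc and Slc11a2, the exporter Slc40a1, and the iron regulatory proteins Ireb2 and Aco1. That list was chosen with earlier results of these data known. All 10 names had a row among 16002 gene IDs, and all 10 were among the 11398 genes with enough reads to test. Bulk polyadenylated RNA was sequenced from 12 libraries in 3 groups of 4. The LITAF libraries came from cells given a lentiviral vector that overexpresses LITAF, a membrane protein of late endosomes and lysosomes, then kept at 1% oxygen for 8 h and reoxygenated for 2 h. The H/R libraries came from cells given an empty lentiviral vector and the same hypoxia and reoxygenation (H/R). The control libraries came from cells kept at normal oxygen with no vector. Both comparisons with the control libraries therefore join the vector with hypoxia and reoxygenation, and these cannot be told apart. All libraries belong to 1 batch, and the labels call the replicates biological without saying whether they came from separate cultures, so a p-value here speaks of the spread among these libraries, which may be technical. The promoter that drives LITAF in the vector is not given in the sources used here.

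Haem oxygenase opens the haem ring and releases iron, carbon monoxide and biliverdin, which biliverdin reductases reduce further. Free iron is stored in ferritin, a shell of heavy and light chains, and is released again when NCOA4 carries ferritin to the lysosome. Transferrin-bound iron enters through the transferrin receptor TFRC, leaves the endosome through DMT1 (Slc11a2) and leaves the cell through ferroportin (Slc40a1). The iron regulatory proteins IRP1 (Aco1) and IRP2 (Ireb2) bind iron-responsive elements, which steady the Tfrc transcript and block the translation of ferritin when iron is scarce. Much of that control acts on translation and protein turnover, which transcript counts do not measure. In heart muscle, iron and haem handling is studied in reperfusion injury and ferroptosis.

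Library totals were 17243530 to 18383183 reads in the LITAF group, 16890647 to 18084879 reads in the H/R group and 19205869 to 20735386 reads in the control group. Levels are given as CPM, counts scaled to a common library size after TMM normalization, and they compare groups within a gene, not genes with one another. The members' deposited counts ran from 113 for Slc40a1 to 55547 for Hmox1 in a library, so each was well above the counting floor. Litaf, the gene carried by the vector, had 2691, 2008, 2532 and 2120 CPM in LITAF libraries 1 to 4, 549, 619, 573 and 598 CPM in H/R libraries and 458, 485, 491 and 456 CPM in control libraries. It was 4.00-fold higher in LITAF than in H/R libraries (log2 2.00 ± 0.10 SE, edgeR quasi-likelihood adjusted p = 1.38e-08), and within the LITAF group libraries 1 and 3 had more than libraries 2 and 4. Of 9 cardiac markers, 3 (Tnnt2, Nkx2-5 and Gata4) averaged over 1 CPM, and the marker of mature cardiomyocytes Tnni3 was at 0 in the H/R and control libraries, with Myh6, Myh7, Nppa, Ryr2 and Actn2 under 1 CPM. The summed cardiac markers were 164 to 222 CPM in LITAF, 80.3 to 110 CPM in H/R and 208 to 447 CPM in control libraries. Most of that sum was Tnnt2, with 132 to 185, 42.9 to 78.9 and 168 to 404 CPM in that order. Gata4 was also highest in control libraries (15.6 to 16.8, 16.7 to 17.8 and 28.9 to 36.8 CPM). Nkx2-5 was lowest there (14.8 to 19.7, 13.3 to 20.2 and 4.89 to 8.90 CPM). Summed skeletal myoblast markers were 156 to 189, 115 to 134 and 1627 to 5953 CPM in the same order of groups. Most of the control sum was Myog, with 18.02 to 39.5, 4.99 to 19.6 and 1257 to 5730 CPM in that order. Myod1 was also highest in control libraries (89.7 to 110, 75.7 to 112 and 185 to 350 CPM). Des was lowest there (13.4 to 17.2, 12.3 to 13.7 and 3.06 to 4.43 CPM). For Myh3, LITAF and control libraries overlapped (11.9 to 28.4 and 14.02 to 32.1 CPM), above H/R libraries (3.31 to 6.79 CPM). Summed fibroblast markers were 15809 to 20447, 13278 to 15066 and 36096 to 46860 CPM in LITAF, H/R and control libraries, with Dcn at 0 throughout. Most of that sum was the collagen gene Col1a1, which averaged 16131.5, 12568 and 34781.6 CPM in that order. Thy1 overlapped between all groups (191 to 254, 207 to 235 and 228 to 267 CPM), and Pdgfra stayed at or below 0.398 CPM. The marker sums differed between the groups, and their part in the members' changes was not tested. In bulk RNA, fewer cells of a type and less RNA per cell cannot be told apart. Macrophage markers summed to 10.5 to 11.8 CPM in LITAF, 8.79 to 10.7 CPM in H/R and 13.1 to 21.8 CPM in control libraries. Of them only Cd14 averaged over 1 CPM in any group, and the pan-leukocyte marker Ptprc stayed at or below 0.168 CPM in every library. Erythroid markers, of which 2 of 5 were measured, summed to at most 0.273, 0.160 and 1.54 CPM in LITAF, H/R and control libraries.

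Under H/R with the empty vector, Hmox1, Ftl1, Slc40a1 and Blvrb were higher than in control cells, and Tfrc and Slc11a2 were lower. Of the 10 genes, 5 rose (those 4 and the Fth1 row, whose rise is uncertain), 3 fell (Tfrc, Slc11a2 and Ireb2) and 2 did not pass an adjusted p of 0.05 (Ncoa4 and Aco1). Of all genes tested, 63.6% passed that threshold, 31.8% rising and 31.8% falling, so 8 of 10 is a share to be read against a transcriptome that moved widely. The median log2 difference was 0.46 over the 10 genes and 0.01 over all genes tested. The H/R and control libraries did not overlap for those 8, 5 higher and 3 lower, as for 58.6% of all genes (30.2% higher, 28.3% lower). With the LITAF vector and H/R, the same counts were found against control, 5 higher and 3 lower, and here 64.6% of all genes passed (32.0% higher, 32.6% lower). The LITAF and control libraries did not overlap for 8 of the 10, against 52.1% of all genes (26.4% higher, 25.7% lower). The comparisons with control share the control libraries. Between the LITAF and H/R groups, 2 genes rose (Hmox1 and Ftl1), 1 fell (Tfrc) and 7 did not pass, against 4.88% of all genes (3.73% higher, 1.15% lower), and the median log2 difference of the 10 was 0.00, against -0.01 over all genes tested. With 1 library left out, the 2 rises became 0 without H/R library 1 or 3 and 1 without H/R library 2 or 4 or LITAF library 2 or 4. All called genes numbered 556, and they numbered 244 to 365 without any one H/R library, LITAF library 3 or LITAF library 4, and 1285 without LITAF library 1.

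**Figure D1:**
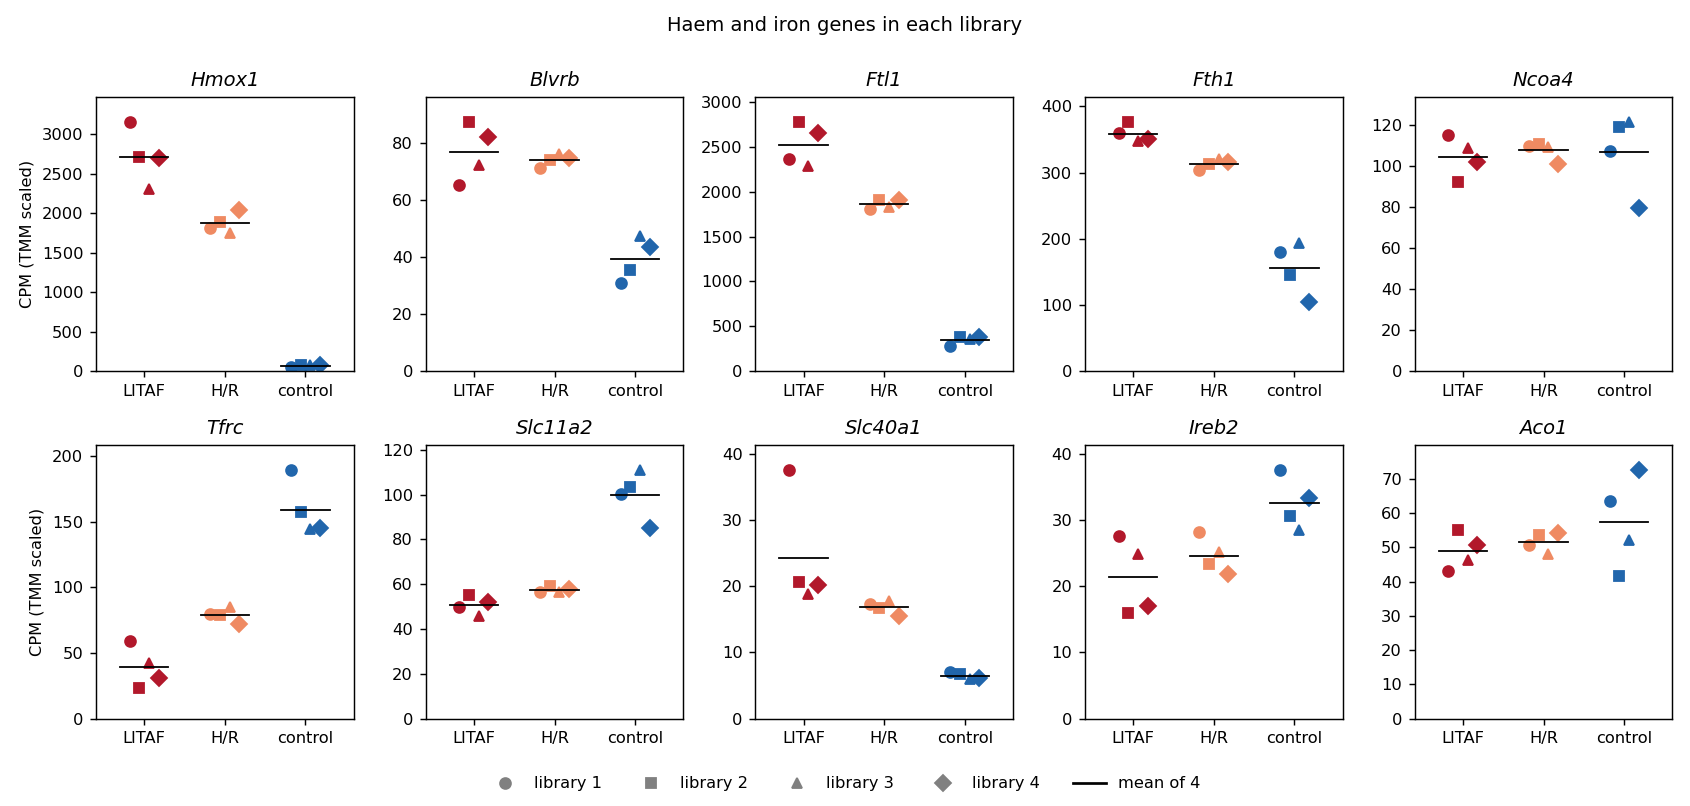
CPM after TMM scaling in each of the 12 libraries for the 10 genes, 1 panel a gene with its own y axis from 0. Points are libraries in the order LITAF, H/R and control, and horizontal bars are group means. Hmox1 and Ftl1 sit far lower in control than in both other groups, and Tfrc is highest in control and lowest in LITAF libraries.

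Hmox1, the inducible haem oxygenase, had 3157, 2716, 2308 and 2698 CPM in LITAF libraries 1 to 4, 1808, 1894, 1747 and 2042 CPM in H/R libraries and 55.3, 75.2, 73.3 and 74.1 CPM in control libraries. Neither group given hypoxia and reoxygenation came near the control values, and every LITAF library was above every H/R library. Hmox1 averaged 1873 ± 128 CPM in H/R and 69.5 ± 9.51 CPM in control libraries (SD, n = 4 each), a 27.0-fold rise (log2 4.75 ± 0.14 SE, edgeR adjusted p = 3.26e-13). The LITAF group averaged 2720 ± 347 CPM (SD, n = 4), 39.2-fold above control (log2 5.29 ± 0.14 SE, edgeR adjusted p = 1.47e-13). LITAF over H/R was 1.45-fold (log2 0.54 ± 0.12 SE, edgeR adjusted p = 0.0138), a call that was lost without H/R library 1 (adjusted p = 0.0562) or H/R library 3 (adjusted p = 0.0627), with log2 differences of 0.48 to 0.61 over all left-out libraries. Blvrb, a reductase of biliverdin and flavins, averaged 76.6 ± 9.92 CPM in LITAF, 73.9 ± 1.98 CPM in H/R and 39.3 ± 7.43 CPM in control libraries. It rose 1.88-fold with H/R over control (log2 0.91 ± 0.13 SE, edgeR adjusted p = 1.57e-05) and 1.95-fold with LITAF over control (log2 0.96 ± 0.13 SE, adjusted p = 8.6e-06). Its LITAF libraries spanned 65.1 to 87.2 CPM and enclosed the H/R range of 71.2 to 75.9 CPM, with a log2 difference of 0.05 ± 0.13 (adjusted p = 0.869).

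Ftl1, the ferritin light chain, followed the same order of groups as Hmox1. It had 2360, 2775, 2289 and 2649 CPM in LITAF libraries, 1809, 1906, 1831 and 1911 CPM in H/R libraries and 280, 378, 362 and 383 CPM in control libraries, so no groups overlapped. Ftl1 rose 5.31-fold in H/R over control (log2 2.41 ± 0.11 SE, edgeR adjusted p = 3.68e-11) and 7.18-fold in LITAF over control (log2 2.84 ± 0.11 SE, adjusted p = 7.55e-12). Its 1.35-fold rise in LITAF over H/R libraries (log2 0.43 ± 0.11 SE, adjusted p = 0.0267) no longer passed the threshold when any of the 4 H/R libraries, LITAF library 2 or LITAF library 4 was left out, with log2 differences of 0.38 to 0.46 and adjusted p of 0.0611 to 0.0982. Rows named as copies of Ftl1 took few reads, and Ftl1 held 99.7% of the summed CPM in LITAF, 99.6% in H/R and 98.8% in control libraries. RefSeq lists 21 such copies, and only 3 of them had a row here, so reads that belong to the others are not seen.

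Fth1, the ferritin heavy chain and the ferroxidase of the shell, rose against control in its own row, and its sum with a row named as its copy did not pass the test. The Fth1 row had 360, 376, 348 and 351 CPM in LITAF libraries, 304, 313, 320 and 316 CPM in H/R libraries and 180, 145, 193 and 104 CPM in control libraries. The 3 groups did not overlap. Fth1 was 2.01-fold higher in H/R than in control libraries (log2 1.01 ± 0.14 SE, edgeR adjusted p = 1.42e-05), 2.30-fold higher in LITAF than in control (log2 1.20 ± 0.14 SE, adjusted p = 2.01e-06) and 0.20 ± 0.14 on the log2 scale in LITAF over H/R (adjusted p = 0.477). Fth1-ps5, listed by RefSeq as a pseudogene, held more reads than Fth1 in every library, with 743, 742, 662 and 690 CPM in LITAF, 587, 652, 621 and 638 CPM in H/R and 829, 480, 850 and 824 CPM in control libraries. Fth1 held 33.6% ± 0.770 of the CPM of both rows in LITAF, 33.4% ± 0.802 in H/R and 17.7% ± 4.96 in control libraries (SD, n = 4 each). Summed, they came to 1068 ± 51.2 CPM in LITAF, 938 ± 32.1 CPM in H/R and 902 ± 190 CPM in control libraries. The summed row, an alternative chosen after seeing the data, did not pass the test in H/R over control (log2 0.06 ± 0.13 SE, edgeR adjusted p = 0.715) or in LITAF over control (log2 0.24 ± 0.13 SE, adjusted p = 0.105), nor in LITAF over H/R (log2 0.19 ± 0.13 SE, adjusted p = 0.443). The Fth1 and Ftl1 values were whole numbers in all 4 control columns and not whole in any of the 8 others, whereas the other 8 genes had whole values in all 12. How the reads of both rows were divided is not given in the sources used here, so the heavy-chain rise is uncertain. RefSeq lists 6 copies of Fth1, and only 1 of them had a row here. Ftl1 shares the break between the control columns and the others, and whether the control columns were quantified in another way is not given. Such a difference could not be told apart from the groups in any comparison with control, that of Ftl1 included.

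**Figure D2:**
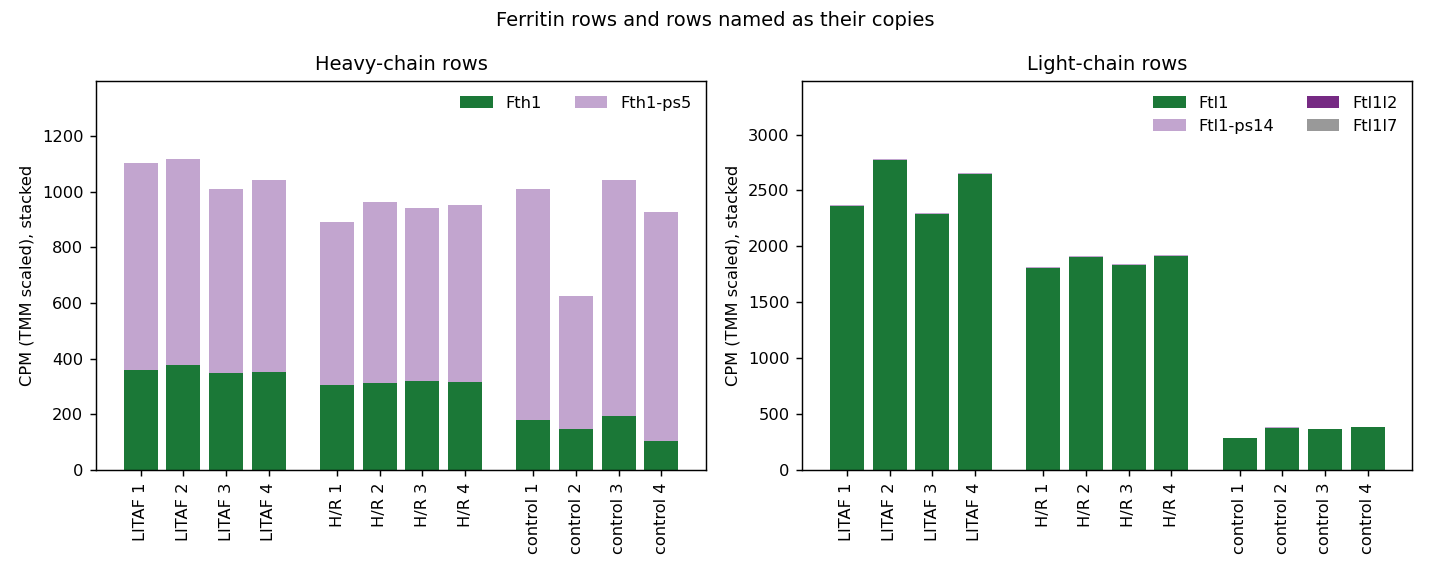
Stacked CPM in each library of the heavy-chain rows Fth1 and Fth1-ps5 (left) and of Ftl1 and its named copies (right), with LITAF left of H/R and control. The Fth1 part is smallest in control libraries while Fth1-ps5 reaches 824 to 850 CPM in 3 of them and 480 CPM in control library 2, and the bars on the right are nearly all Ftl1.

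Ncoa4, the receptor that takes ferritin to the lysosome, did not pass the test in any comparison. It averaged 105 ± 9.80 CPM in LITAF, 108 ± 4.45 CPM in H/R and 107 ± 19.3 CPM in control libraries (SD, n = 4 each), and its ranges overlapped in every pair of groups. The log2 differences were -0.04 ± 0.12 in LITAF over H/R, 0.01 ± 0.12 in H/R over control and -0.03 ± 0.12 in LITAF over control.

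Tfrc, the receptor for transferrin-bound iron, was the importer with the widest range. It had 59.1, 23.7, 42.1 and 31.3 CPM in LITAF libraries 1 to 4, 80.1, 79.4, 85.4 and 72.1 CPM in H/R libraries and 190, 158, 145 and 145 CPM in control libraries. Every LITAF library was below every H/R library and every H/R library was below every control library. Tfrc was 2.03-fold lower in LITAF than in H/R libraries (log2 -1.02 ± 0.20 SE, edgeR adjusted p = 0.00796), 2.01-fold lower in H/R than in control (log2 -1.01 ± 0.20 SE, adjusted p = 0.000329) and 4.08-fold lower in LITAF than in control (log2 -2.03 ± 0.21 SE, adjusted p = 2.79e-07). The call of LITAF against H/R was kept in all 15 alternative settings, with log2 differences between -1.28 without LITAF library 1 and -0.85 without LITAF library 2. Within the LITAF group Tfrc spread more than in the other groups, with a coefficient of variation of 39.3%, against 6.89% in H/R and 13.3% in control libraries, where the median over all genes was 12.2%, 7.45% and 16.1%. LITAF libraries 1 and 3 were above libraries 2 and 4 for Tfrc, Ireb2 and Ncoa4 and below them for Blvrb, Ftl1, Slc11a2 and Aco1, and 32.5% of all genes tested had libraries 1 and 3 above both others and 34.0% had them below. Together these are most of the genes tested, so the LITAF group was split this way well beyond the members. Litaf itself was higher in libraries 1 and 3, and the part of that split in these values was not tested.

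**Figure D3:**
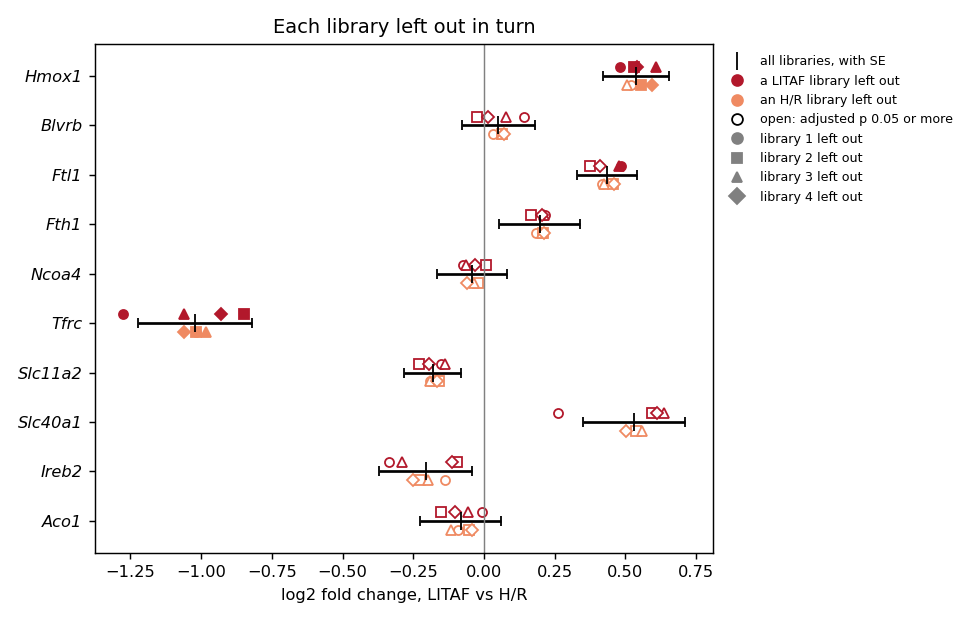
The log2 difference of LITAF over H/R for the 10 genes, with the value and standard error from all libraries in black and the values after leaving out each LITAF (dark red) or H/R (orange) library in turn, open where the adjusted p is 0.05 or more. Tfrc stays below 0 throughout, between -1.28 and -0.85, and Slc40a1 moves most, to 0.26 without LITAF library 1.

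The promoter windows of Tfrc and Ncoa4 are shown because, of the 8 windows found for 7 of the 10 genes, they alone hold the letters ACGTG, the core of the hypoxia response element, on either strand. Capitals mark that core, each window is the 250 bases before the annotated start, read 5′ to 3′ on the gene's strand, and both come from RefSeq on GRCr8 (Tfrc, chr11:81690319-81690568, minus strand; Ncoa4, chr16:7401541-7401790, plus strand).
Tfrc: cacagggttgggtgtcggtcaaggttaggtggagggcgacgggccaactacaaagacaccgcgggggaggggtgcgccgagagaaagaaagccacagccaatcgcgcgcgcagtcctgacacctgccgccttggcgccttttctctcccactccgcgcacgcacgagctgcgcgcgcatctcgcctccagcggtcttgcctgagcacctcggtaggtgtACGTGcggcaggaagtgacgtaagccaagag
Ncoa4: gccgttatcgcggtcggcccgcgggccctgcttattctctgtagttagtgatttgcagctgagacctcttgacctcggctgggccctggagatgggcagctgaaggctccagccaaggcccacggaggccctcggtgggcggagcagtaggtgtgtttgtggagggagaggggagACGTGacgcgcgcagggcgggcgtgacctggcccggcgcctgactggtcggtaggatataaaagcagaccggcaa
The core's first base lies 31 bases before the start of Tfrc and 75 bases before that of Ncoa4. Of 33469 windows of the same length, 16.6% hold it. Tfrc fell in H/R against control and Ncoa4 did not pass the test. TGACNNNGC, the antioxidant response element core, was found in 1 of the 8 windows (Ncoa4), against 10.1% of all windows, and TGANTCA, an AP-1 site, in 0, against 6.34%. A match is a description of letters, not a site.

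Slc11a2, the endosomal iron transporter DMT1, had 49.7, 55.1, 46.0 and 52.1 CPM in LITAF libraries, 56.7, 59.0, 56.5 and 57.9 CPM in H/R libraries and 100, 103, 111 and 85.3 CPM in control libraries. It fell 1.74-fold in H/R against control (log2 -0.80 ± 0.10 SE, edgeR adjusted p = 3.71e-06) and 1.97-fold in LITAF against control (log2 -0.98 ± 0.10 SE, adjusted p = 3.49e-07). LITAF libraries lay below H/R libraries without overlap, yet the difference of -0.18 ± 0.10 on the log2 scale did not pass (adjusted p = 0.333).

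Slc40a1, ferroportin, had 37.6, 20.6, 18.8 and 20.2 CPM in LITAF libraries, 17.3, 16.8, 17.8 and 15.5 CPM in H/R libraries and 6.98, 6.67, 5.92 and 6.09 CPM in control libraries. It rose 2.62-fold in H/R over control (log2 1.39 ± 0.19 SE, edgeR adjusted p = 9.63e-06) and 3.79-fold in LITAF over control (log2 1.92 ± 0.19 SE, adjusted p = 2.34e-07). Its 0.53 ± 0.18 in LITAF over H/R did not pass (adjusted p = 0.102), and without LITAF library 1 it was 0.26 ± 0.11 (adjusted p = 0.152). In all, 6 of the 10 genes did not overlap between LITAF and H/R libraries, 4 higher (Hmox1, Ftl1, Fth1 and Slc40a1) and 2 lower (Tfrc and Slc11a2), where 18.9% of all genes did not overlap (10.6% higher, 8.30% lower). Because the 10 were chosen with earlier results of these data known, that count is a description only.

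Ireb2, which encodes IRP2, had 27.5, 16.0, 24.9 and 17.0 CPM in LITAF libraries, 28.2, 23.3, 25.2 and 21.9 CPM in H/R libraries and 37.6, 30.6, 28.5 and 33.3 CPM in control libraries. It fell 1.32-fold in H/R against control (log2 -0.40 ± 0.16 SE, edgeR adjusted p = 0.0403) and 1.52-fold in LITAF against control (log2 -0.61 ± 0.16 SE, adjusted p = 0.00384). The H/R call was lost under 7 of 15 alternatives, among them library totals in place of TMM (log2 -0.27, adjusted p = 0.157) and the upper quartile (log2 -0.28, adjusted p = 0.108), and without control library 1 or 4 or H/R library 2, 3 or 4. LITAF against H/R gave -0.21 ± 0.16 (adjusted p = 0.517). Aco1, which encodes IRP1, a cytosolic aconitase when it carries its iron-sulfur cluster, averaged 48.8 ± 5.22 CPM in LITAF, 51.7 ± 2.84 CPM in H/R and 57.4 ± 13.5 CPM in control libraries (SD, n = 4 each), overlapped in every pair and did not pass in any comparison. Without control library 2 it was called lower in LITAF than in control (log2 -0.36, adjusted p = 0.0188).

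**Figure D4:**
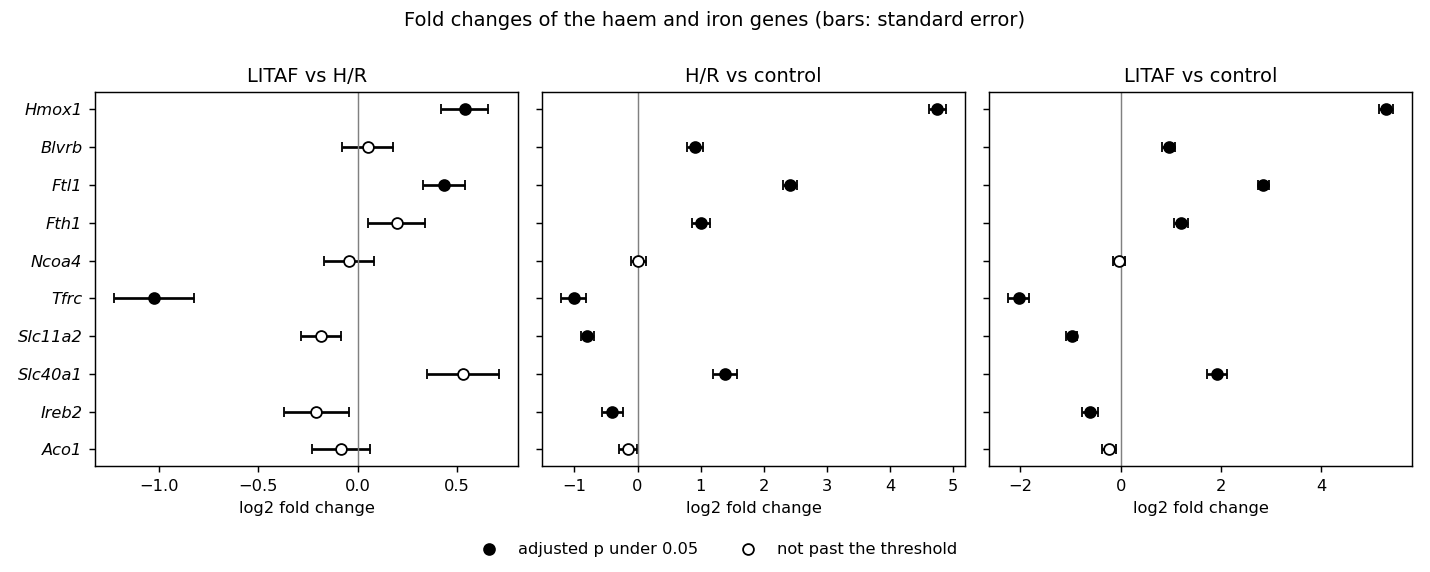
Log2 fold changes with standard errors of the 10 genes for LITAF over H/R, H/R over control and LITAF over control, from the fit to all 12 libraries, on axes with different ranges. Filled points passed an adjusted p of 0.05. Hmox1 lies highest in both comparisons with control, at 4.75 and 5.29, and Tfrc lies lowest in all 3.

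The wider pathway was taken from 71 list entries in 8 groups, of which 51 genes outside the 10 were tested. Abcg2, Alas2, Ftmt and Mafg were not analysed here, and Tfr2, Hfe, Hamp, Hjv, Tmprss6 and Epas1 had too few reads to test. In H/R over control, 19 of the 51 rose, 13 fell and 19 did not pass, 62.7% called against 63.6% of all genes, and in LITAF over control 20 rose, 12 fell and 19 did not pass, again 62.7%. Those shares lie near the background. In haem breakdown and transport 6 of 9 rose and 1 fell in H/R over control, among them Slc48a1, which carries haem out of the endolysosome (221 CPM in H/R, 147 CPM in control, log2 0.59 ± 0.09), Hmox2, the constitutive haem oxygenase (28.3 CPM in H/R, 19.4 CPM in control, log2 0.54 ± 0.12), and Hpx, the plasma haem carrier haemopexin (1.21 CPM in H/R, 0.106 CPM in control, log2 3.43 ± 0.45). Hpx was near the counting floor in control libraries, at 0.051 to 0.154 CPM, so the size of its difference is uncertain. In haem synthesis 2 of 8 rose and 3 fell: Alas1, the entry enzyme, was higher (46.5 CPM in H/R, 26.4 CPM in control, log2 0.82 ± 0.12), whereas the final enzyme Fech was lower (24.2 CPM in H/R, 43.1 CPM in control, log2 -0.83 ± 0.11).

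The other lists are read against the same background, 63.6% of all genes called, 31.8% rising and 31.8% falling. Of the iron storage list, 4 of 5 rose in H/R over control and 0 fell, the iron chaperones Pcbp1 (log2 0.28 ± 0.09) and Pcbp2 (log2 0.26 ± 0.10) by little, and the Fth1 rise among them is the uncertain one above. The Pcbp1 call was lost without H/R library 4 (adjusted p = 0.0756), and the Pcbp2 call without control library 1 or 2 or H/R library 2 or 4 (adjusted p up to 0.067). The uptake list split, with 2 of 8 higher and 4 lower: the endolysosomal channel Mcoln1 was higher (log2 0.76 ± 0.11), and the divalent metal importer Slc39a8 (log2 -1.61 ± 0.35) and the ferric reductase Cybrd1 (log2 -0.51 ± 0.12) were lower. In export 1 of 4 rose and 2 fell, the ferroxidases Heph (log2 -0.64 ± 0.12) and Cp (log2 -0.78 ± 0.15), opposite to Slc40a1, which works with them. In cellular iron sensing 0 of 4 rose and 2 fell, Ireb2 and Herc2 (log2 -0.44 ± 0.10), a ubiquitin ligase. Among 16 mitochondrial iron and iron-sulfur cluster genes 6 rose and 4 fell, including the scaffold Nfu1 (log2 1.25 ± 0.17) and the cysteine desulfurase Nfs1 (log2 -0.91 ± 0.11). Of 7 transcriptional regulators 3 rose and 0 fell, the small Maf proteins Maff (log2 1.84 ± 0.10) and Mafk (log2 1.53 ± 0.13) and the NRF2 adaptor Keap1 (log2 0.91 ± 0.11). Nfe2l2, which encodes NRF2, averaged 181 ± 39.2 CPM in LITAF, 193 ± 5.35 CPM in H/R and 155 ± 38.9 CPM in control libraries and did not pass (adjusted p = 0.101 in H/R over control). Median log2 differences in H/R over control were 0.54 for haem breakdown and transport, 0.31 for the regulators, 0.28 for storage, 0.17 for the mitochondrial list, 0.0003 for export, -0.27 for haem synthesis, -0.28 for sensing and -0.32 for uptake, against 0.01 over all genes.

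The lists were also counted in LITAF over control, which shares the control libraries with the comparison above and in which 64.6% of all genes were called, 32.0% higher and 32.6% lower. In haem breakdown and transport 6 of 9 rose and 1 fell, with the haem exporter Flvcr1 at 45.9 CPM in LITAF and 26.3 CPM in control libraries (log2 0.80 ± 0.16). In haem synthesis 2 of 8 rose and 4 fell, with Fech at 27.0 CPM in LITAF and 43.1 CPM in control libraries (log2 -0.67 ± 0.11). In storage 3 of 5 rose and 0 fell: Ftl1, the Fth1 row, which did not pass when summed with Fth1-ps5, and Pcbp2 (log2 0.24 ± 0.10, adjusted p = 0.0385). The Pcbp2 call was lost in 8 of 15 alternatives (adjusted p up to 0.115), among them no low-count filter and leaving out control library 1 or 2 or LITAF library 2, 3 or 4. In uptake 2 of 8 rose and 4 fell, and in sensing 0 of 4 rose and 1 fell. The zinc and iron importer Slc39a14 was higher (26.7 CPM in LITAF, 19.6 CPM in control, log2 0.45 ± 0.10). In export 2 of 4 rose and 1 fell, Slc40a1 with Bmp6, a bone morphogenetic protein that controls hepcidin in liver (1.24 CPM in LITAF, 0.549 CPM in control, log2 1.17 ± 0.31), against Heph (log2 -0.44 ± 0.12). Bmp6 counts were low, at 0.979 to 1.64 CPM in LITAF and 0.408 to 0.945 CPM in control libraries, so the size of its difference is uncertain. Among mitochondrial genes 6 of 16 rose and 4 fell, including Iscu, the iron-sulfur scaffold (44.6 CPM in LITAF, 80.4 CPM in control, log2 -0.85 ± 0.12). Of 7 regulators 4 rose and 0 fell, Bach1 (log2 0.82 ± 0.15) in addition to Maff, Mafk and Keap1.

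In LITAF over H/R, 4 of the 51 rose and 0 fell, 7.84% against 4.88% of all genes. Maff averaged 140 ± 10.3 CPM in LITAF, 99.6 ± 3.29 CPM in H/R and 27.9 ± 3.15 CPM in control libraries, so it had the same order of groups as Hmox1 (LITAF over H/R log2 0.49 ± 0.10 SE, edgeR adjusted p = 0.00858). Bach1, the haem-binding repressor of Hmox1, averaged 102 ± 20.7 CPM in LITAF, 66.1 ± 2.65 CPM in H/R and 57.7 ± 10.3 CPM in control libraries (log2 0.62 ± 0.15 SE, adjusted p = 0.021). Cp, ceruloplasmin, averaged 39.2 ± 8.56 CPM in LITAF, 23.6 ± 2.88 CPM in H/R and 40.4 ± 3.91 CPM in control libraries, and Herc2 averaged 69.1 ± 6.88, 51.8 ± 1.68 and 70.4 ± 5.84 CPM. Both were lower in H/R than in control and higher in LITAF than in H/R (Cp log2 0.73 ± 0.15, adjusted p = 0.00932; Herc2 log2 0.42 ± 0.10, adjusted p = 0.025), and LITAF over control was -0.04 ± 0.15 for Cp and -0.03 ± 0.10 for Herc2. The Bach1 call was lost without H/R library 1 or 3 or LITAF library 3 (adjusted p up to 0.0642), and the Herc2 call without H/R library 1, 2 or 3 or LITAF library 3 or 4 (adjusted p up to 0.1). These comparisons share the H/R libraries.

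**Figure D5:**
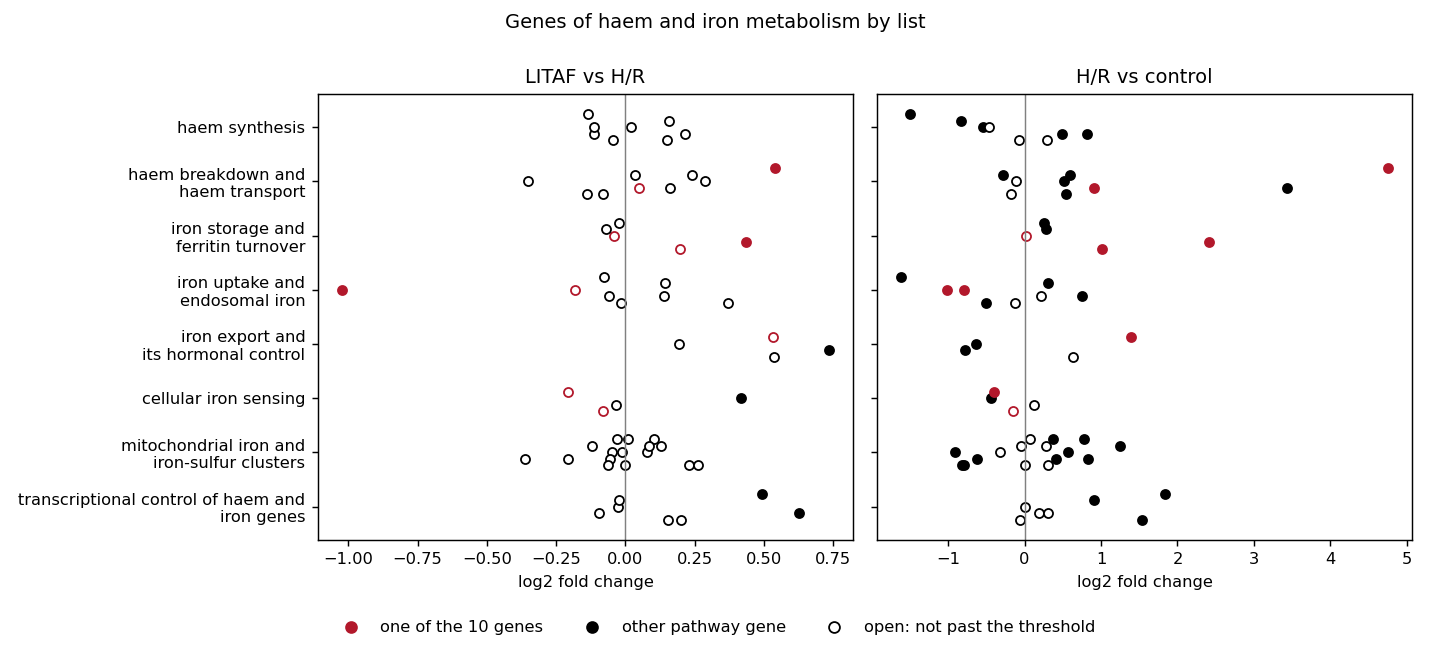
Log2 fold changes of the tested genes of each haem and iron list, members included, for LITAF over H/R (left) and H/R over control (right), 1 point a gene, red for the 10 genes, filled where the adjusted p is under 0.05. Tfrc lies lowest on the left at -1.02 and Hmox1 lies highest on the right at 4.75.

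Genes with the pattern most like 3 members over the 12 libraries were named by the root mean square difference of centred log2 CPM, among 9714 genes, as a description. For Ftl1 they were Atf3 (0.0938), Eif4ebp1 (0.132) and Trib3 (0.147), and Atf3 averaged 99.8 ± 6.84 CPM in LITAF, 75.0 ± 1.86 CPM in H/R and 12.8 ± 2.07 CPM in control libraries. For Tfrc they were Ncapg (0.150), Ccng1 (0.199) and Ccne2 (0.207), with Ncapg at 35.9 ± 14.7 CPM in LITAF, 61.1 ± 5.26 CPM in H/R and 130 ± 10.9 CPM in control libraries. The nearest genes to Hmox1 lay farther off, Hspa1l (0.452), Hspa5 (0.454) and Zfand2a (0.475). Zfand2a averaged 1380 ± 161 CPM in LITAF, 930 ± 24.6 CPM in H/R and 68.5 ± 13.2 CPM in control libraries. Hspa1l has a close paralog with which it can share reads, so its value is uncertain.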

How the data were processed

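RNA was sequenced from 12 libraries of H9C2 cells. The authors deposited 1 table of estimated counts per gene, which are not all whole numbers. The share not whole (tolerance 1e-06) was 11.9 to 12.6% in LITAF, 11.4 to 12.4% in H/R and 2.84 to 3.40% in control libraries. The submitters' processing notes name DESeq2 and edgeR with no role. Aligner, quantifier, genome build, annotation and strand are not given in the sources used. Counts were rounded. Of 16204 rows, 258 shared 128 IDs: 72 IDs whose rows differed were left out and 56 identical ones were kept once.

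Groups and replicate numbers came from the titles. Genes were filtered by edgeR's filterByExpr, scaled by TMM and tested in 1 fit of all 3 groups with edgeR's quasi-likelihood test (edgeR 4.0.16, limma 3.58.1, R 4.3.3), with Benjamini-Hochberg adjustment over 11398 genes and a threshold of 0.05. The biological coefficient of variation was 14.5%. Standard errors were the log2 fold change divided by the root of F. The scripts were tested on simulated data. DESeq2 1.42.0, other scalings, filters, subsets and left-out libraries were the alternatives.

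The 10 members and the lists were chosen with earlier results of these data known. The genes named from each list were the 3 with the smallest p among those that passed, of which 1 gene is not reported here, and those named for likeness were the 3 nearest to Hmox1, Ftl1 and Tfrc. Same-numbered H/R and control libraries deviated together (correlations 0.302 to 0.568), so the numbers pair them. The main fit, from which the p-values in the Results come, did not use that pairing. An alternative fit with a replicate block changed no call on the 10 members in H/R over control. For LITAF and H/R the same-number correlations were 0.0543 to 0.197, with 2 of 4 over 0.1, and for LITAF and control 0.0487 to 0.100. The numbers alone do not pair those groups. The H/R library that correlated best with LITAF libraries 1 to 4 was 3, 4, 3 and 2, so odd numbers went with odd and even with even. Whether these groups share cultures or days was not tested. Promoter windows came from RefSeq on GRCr8.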

Additional observations from a re-analysis of the deposited data

Results flagged for a closer look

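In 3 of 33 sets of 4 libraries (10 genes and Litaf in 3 groups), 1 library stood apart from the other 3 by Dixon's gap test. Chance alone gives about 1 in 20. Slc40a1 had 37.6 CPM in LITAF library 1, against 18.8 to 20.6 CPM in the other LITAF libraries. Ncoa4 had 101 CPM in H/R library 4, against 109 to 111 CPM in the other H/R libraries. Hmox1 had 55.3 CPM in control library 1, against 73.3 to 75.2 CPM in the other control libraries.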

How the results depend on the processing

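Of 30 tests on the 10 genes, 19 kept their call and direction in every alternative. The number of genes past the threshold in LITAF over H/R was 556, and it was 902 with DESeq2, 1098 with both groups fitted alone, 887 with both groups alone and the replicate block, 182 at an adjusted p of 0.01, and 244 (without H/R library 3 or LITAF library 4) to 1285 (without LITAF library 1) with 1 library left out. In H/R over control the block gave 8032 called genes, against 7248, and it changed no call on the 10 genes in that comparison. Of those called in LITAF over H/R, 76.4% rose under TMM, 61.0% under library totals, 66.5% under the upper quartile and 53.9% without LITAF library 1. The members that rose in LITAF over H/R numbered 2, but 0 at an adjusted p of 0.01 and 0 to 2 with 1 library left out. Directions turned only for values near 0: Blvrb in LITAF over H/R ranged from -0.026 to 0.14 with 1 library left out, and Ncoa4 from -0.073 to 0.0064 in LITAF over H/R, from -0.11 to 0.083 in H/R over control and from -0.15 to 0.049 in LITAF over control. Ncoa4 was -0.00216 in H/R over control with DESeq2, and 0.051 under library totals and 0.070 under the upper quartile in LITAF over control. Fth1 was called higher in LITAF than in H/R with both groups fitted alone (0.20 ± 0.05, adjusted p = 0.047). Of 42 named pathway tests, 5 lost their call in some alternative, among them Bach1 (highest adjusted p 0.0642) and Herc2 (0.1) in LITAF over H/R, and 0 reversed. Library totals and the upper quartile moved the median of all genes by 0.13 and 0.12 (log2) in H/R over control. The cause was not tested.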
